A study of Mus musculus with 20 samples.

Results

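The livers compared here came from Fancd2 mutant mice given metformin and from wild-type mice given no drug. The labels give the mutants the genotype d2-/- and the treatment met, and the series design states that the mice were male and were treated for 18 months before the liver was taken. The members were chosen by these labels as the libraries of both groups: 7 of the 18 libraries analysed here, 3 metformin mutants and 4 untreated wild types, out of 20 labelled samples. A library of a further metformin mutant, called replicate 2, was not analysed here. No metformin-treated wild type was among the samples, so in this comparison the drug and the mutation cannot be told apart. For that reason the 3 untreated mutants (genotype d2-/-) analysed here are given beside the results, and since they are set against the same libraries the comparisons are not independent of each other. The labels give no dose, no route, no strain and no age, and they do not say that the libraries are from separate animals, so the p-values measure the spread between these libraries.

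Metformin is a drug against type 2 diabetes that lowers glucose release by the liver. It inhibits complex I of the respiratory chain and activates the energy sensor AMPK, a kinase that restrains fatty acid and cholesterol synthesis. The product of Fancd2 belongs to the Fanconi anaemia pathway, whose proteins undo crosslinks between DNA strands, and people born without the pathway are prone to marrow failure and tumours. Counts of Fancd2 were not analysed here, and the genotype labels stand unchecked.

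Each library held 21.2 to 29.2 M counts. Levels are in CPM, a gene's count set against the library total as scaled by TMM, and differences are log2 (metformin mutant over wild type) ± SE from edgeR's quasi-likelihood fit over all 18 libraries. Adjusted p is that test's p with Benjamini-Hochberg adjustment over 16115 genes, called under 0.05. Hepatocyte markers were abundant in every library, with a sum over 11 genes of 58610 to 97993 CPM in wild type and 46304 to 97048 CPM with metformin. The libraries were not alike within a group. Metformin replicate 3 stood apart, with a median correlation of 0.926 with the other libraries. It carried high levels of bile duct, smooth muscle and gut epithelium genes. Metformin replicate 4 carried high levels of cell division, T and NK cell, MHC class II and interferon genes. Fetal genes were high in both metformin replicates 3 and 4. Wild-type replicate 3 carried high neutrophil and acute-phase genes, and wild-type replicate 2 high bile duct and MHC class II genes. Where leaving out 1 of these libraries moved a list median or a gene's difference much, the value without it is given below, and the part that the other cell types of these libraries had in the results was not tested. In bulk tissue, fewer cells of a type and less RNA per cell cannot be told apart.

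No gene passed the test between metformin mutants and wild types. EdgeR called 0 of 16115 genes (0.00%), with a smallest adjusted p of 0.320. At an unadjusted p under 0.05 there were 722 genes, 611 higher (3.79%) and 111 lower (0.689%) with metformin. Over all genes the median log2 difference was 0.02, and 52.8% of genes had a difference above 0 and 47.2% below. The groups did not overlap in 594 genes, of which 295 lay higher (1.83%) and 299 lower (1.86%) in all 3 metformin libraries than in all 4 wild types. Among the higher genes at an unadjusted p under 0.05, metformin replicate 3 was the highest of the 3 metformin libraries in 450 of the 611 higher genes (73.6%), against 41.3% of all genes, while replicate 1 was the highest in 26 of them (4.26%). Against the untreated mutants edgeR also called 0 genes for metformin (0.00%, with 914 at an unadjusted p under 0.05, which is 5.67%). DESeq2 called 49 genes against wild type, and edgeR called 67 without metformin replicate 1 and 7 without metformin replicate 4. EdgeR without metformin replicate 3 called 0 (536 at an unadjusted p under 0.05). Because edgeR on all libraries called no gene, the gene groups below are described by their counts and medians, read against these shares of all genes.

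**Figure D1:**
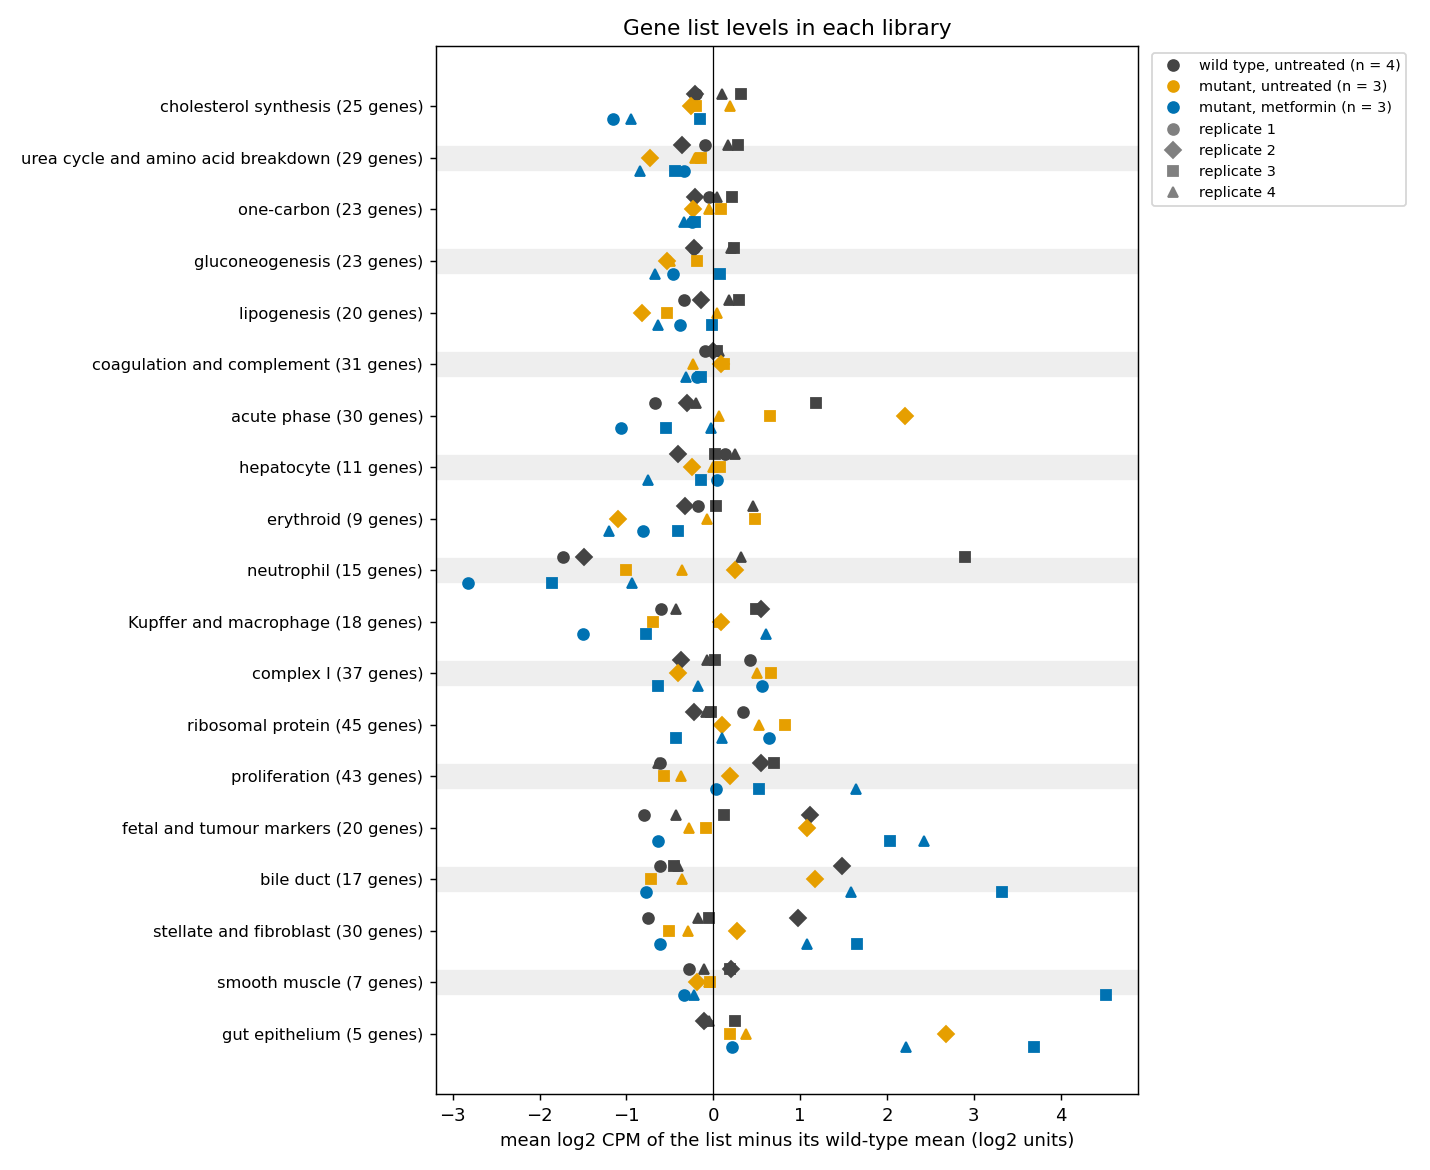
Level of 19 gene lists in each library, as the mean over the list's genes of log2 CPM minus the wild-type mean (horizontal axis, log2 units), with 1 point per library, colours for groups and symbols for replicate numbers. The metformin libraries lie to the left of the wild types for erythroid genes, 2 of the 3 do so for cholesterol synthesis genes, and replicate 3 lies to the right of every wild type for bile duct genes, as replicates 3 and 4 do for fetal genes, with replicate 4 close to wild-type replicate 2 for bile duct genes.

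Cholesterol synthesis genes lay lower in metformin mutants than in wild types. Hepatocytes build cholesterol from acetyl-CoA through mevalonate, squalene and lanosterol, and the transcription factor SREBP2 drives nearly all enzymes of the pathway when sterols run low. All 25 listed genes had a log2 difference below 0, where 47.2% of all genes did, and they ranged from −1.20 to −0.10 with a median of −0.66. None was called, and 3 had an unadjusted p under 0.05 (0.689% of all genes lay lower at that p). The groups did not overlap in 4 of the genes (1.86% of all genes lay lower without overlap). In metformin replicates 1 and 4 each of the 25 genes was under its wild-type mean, against 54.2 and 56.4% of all genes in these libraries, and in metformin replicate 3 it was 18 of 25, against 51.3% of all genes. Set against wild type, the list's mean log2 level lay at −1.16 and −0.95 for metformin replicates 1 and 4 and at −0.15 for replicate 3. The 4 wild types spanned −0.22 to 0.32, so replicate 3 sat inside their range and the others below it. Without replicate 3 the median was −1.03, with 25 of 25 lower. It was −0.53 without replicate 1 and −0.55 without replicate 4, each with 24 of 25 lower. Against untreated mutants, which spanned −0.26 to 0.19, 23 of 25 genes lay lower (46.1% of all genes), with a median of −0.68. The untreated mutants themselves had a median of −0.07 from wild type, with 15 of 25 lower (52.2% of all genes).

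Upstream of these genes, RefSeq lists promoters for 17 of the 25 (mouse build GRCm38.p6), and the 250 bases before the start site were read for motifs on both strands. The CCAAT box (CCAAT, read as ATTGG on the other strand), which the factor NF-Y binds beside SREBP2 in many sterol genes, was in 16 of the 17 genes and in 37.5% of all 27025 genes of the table. A core of the sterol regulatory element (TCACNCCAC, no overlap with the CCAAT box) was in 1 of the 17, Hmgcs1, and in 1.22% of all genes. Shown are 3 of the 4 listed genes with the smallest p (the other one, Pmvk, has several start sites). Hmgcs1 is added, which was picked for its sterol core after the values were seen. The lower level described above was shared by all 25 genes and is not particular to those shown. Capitals mark the motifs. The windows lie on the minus strand at chr17:12960726-12960975 (Acat2), chr1:169969206-169969455 (Hsd17b7) and chr8:64733579-64733828 (Msmo1), and on the plus strand at chr13:119690101-119690350 (Hmgcs1).
Acat2: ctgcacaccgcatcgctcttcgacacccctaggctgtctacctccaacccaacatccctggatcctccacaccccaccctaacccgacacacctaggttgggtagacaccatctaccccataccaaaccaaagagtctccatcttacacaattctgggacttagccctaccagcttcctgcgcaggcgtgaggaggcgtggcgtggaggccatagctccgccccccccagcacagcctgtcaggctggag
Hsd17b7: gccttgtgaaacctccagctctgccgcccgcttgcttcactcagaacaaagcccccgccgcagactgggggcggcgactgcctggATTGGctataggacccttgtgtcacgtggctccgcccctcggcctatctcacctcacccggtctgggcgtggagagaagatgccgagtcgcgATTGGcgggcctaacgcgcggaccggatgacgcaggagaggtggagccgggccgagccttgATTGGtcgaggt
Msmo1: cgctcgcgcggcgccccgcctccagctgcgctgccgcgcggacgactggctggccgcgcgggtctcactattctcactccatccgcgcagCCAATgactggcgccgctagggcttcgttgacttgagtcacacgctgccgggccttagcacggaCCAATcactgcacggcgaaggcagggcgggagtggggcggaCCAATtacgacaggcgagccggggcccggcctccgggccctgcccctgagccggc
Hmgcs1: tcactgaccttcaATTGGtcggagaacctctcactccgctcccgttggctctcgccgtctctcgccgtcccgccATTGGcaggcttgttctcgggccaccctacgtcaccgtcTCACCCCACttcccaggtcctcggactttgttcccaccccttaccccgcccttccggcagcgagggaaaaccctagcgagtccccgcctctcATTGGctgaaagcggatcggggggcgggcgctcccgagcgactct
The first of these windows holds neither motif, the next pair hold 3 CCAAT boxes each, and the last holds 3 beside the sterol core. A match is a description of the letters, and no binding was measured here.

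The pathway begins with Acat2 (ENSMUSG00000023832), which joins a pair of acetyl-CoA molecules in the cytosol. Acat2 had 111, 113, 202 and 158 CPM in wild-type replicates 1 to 4 and 65.0, 99.9 and 70.8 CPM in metformin replicates 1, 3 and 4. Every metformin library lay below every wild type, and the untreated mutants, with 107, 109 and 167 CPM, reached into the wild-type range (log2 difference −0.89 ± 0.32, edgeR adjusted p = 0.730). Hmgcs1, the next enzyme, makes HMG-CoA. It had 419, 419, 808 and 589 CPM in wild type and 104, 440 and 265 CPM with metformin, with replicate 3 inside the wild-type range (−1.05 ± 0.57, edgeR adjusted p = 0.9999, and −0.67 without metformin replicate 1). Pmvk, the phosphomevalonate kinase, had the lowest difference of the list. Its levels were 81.5, 49.4, 135 and 84.7 CPM in wild type and 37.9, 47.9 and 29.0 CPM with metformin (−1.20 ± 0.47, edgeR adjusted p = 0.893). The groups did not overlap, though wild-type replicate 2 and metformin replicate 3 lay close together, and untreated mutants had 61.3 to 149 CPM.

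Later steps lay low as well. Msmo1 removes methyl groups from lanosterol derivatives. It had 734, 578, 828 and 636 CPM in wild type and 342, 485 and 324 CPM with metformin, without overlap (−0.85 ± 0.36, edgeR adjusted p = 0.965). Hsd17b7 acts in the same demethylation, as its ketone reductase. Its wild-type levels were 135, 115, 194 and 154 CPM and its metformin levels 68.4, 137 and 60.2 CPM, so that replicate 3 again lay among the wild types (−0.76 ± 0.38, edgeR adjusted p = 0.9999). In this gene the untreated mutants were also low, at 76.4 to 133 CPM, and metformin mutants differed from them by −0.15 ± 0.40. The 4th listed gene without overlap, Idi1, falls outside the rule for named genes and is given by name only.

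**Figure D2:**
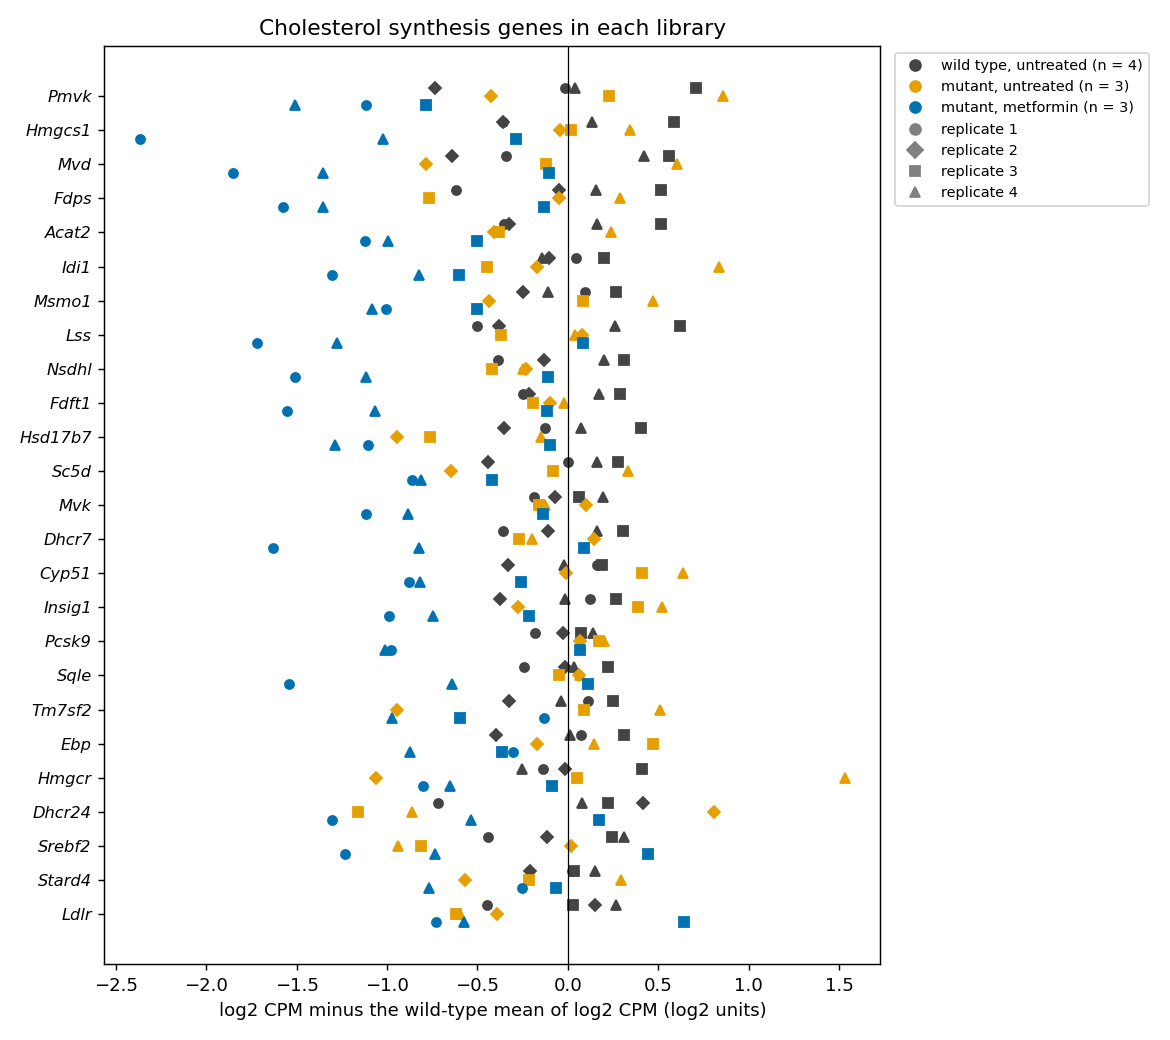
Log2 CPM of each of the 25 cholesterol synthesis genes minus the wild-type mean of log2 CPM (horizontal axis, log2 units), with 1 point per library, colours for groups and symbols for replicate numbers, ordered by the difference between metformin mutant and wild type. Metformin replicates 1 and 4 lie left of the wild types in nearly every gene, and metformin replicate 3 lies among or close to them.

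Fatty acid synthesis genes, driven in liver by SREBP1 and insulin, lay lower in 13 of 20 (median −0.36). Of these, 1 had an unadjusted p under 0.05 (0.689% of all genes) and 0 lay lower without overlap (1.86% of all genes). The median was −0.59 without metformin replicate 3, −0.19 without metformin replicate 4 and −0.20 without wild-type replicate 3. Scd1, the desaturase that makes oleate, had 436, 1384, 2737 and 1192 CPM in wild type and 355, 440 and 861 CPM with metformin (−1.38 ± 0.74, edgeR adjusted p = 0.9999). Acss2, which makes acetyl-CoA from acetate and is also an SREBP target, had 85.6, 109, 275 and 179 CPM in wild type and 41.4, 118 and 50.6 CPM with metformin (−1.21 ± 0.56, edgeR adjusted p = 0.9999). Both genes overlapped between the groups, and both were highest in wild-type replicate 3. The untreated mutants lay lower than wild type in 19 of 20 lipogenesis genes (median −0.35), and metformin mutants differed from them by a median of 0.04. Lipid droplet genes lay higher in 8 of 15 (median 0.02), 2 of them at an unadjusted p under 0.05 (3.79% of all genes). These were Cidec and the perilipin gene Plin4, which encode coat proteins of the droplets. Cidec had 1.505 to 4.10 CPM in wild type and 5.84, 6.11 and 3.91 CPM with metformin (1.06 ± 0.39, edgeR adjusted p = 0.749), with replicate 4 just inside the wild-type range. Plin4 had 0.116 to 0.498 CPM in wild type and 0.842, 3.96 and 0.521 CPM with metformin, without overlap (2.73 ± 0.68, edgeR adjusted p = 0.372, and 1.33 without metformin replicate 3). The lipid droplet list's mean log2 level was 0.09 to 0.27 with metformin and −0.04 to 0.06 in wild type, without overlap. In untreated mutants it was −0.15 to 0.05.

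Genes of fatty acid oxidation, many of them targets of the fatty acid receptor PPAR-alpha, split evenly against wild type, with 16 of 32 higher and 16 lower and a median of −0.0031, but the metformin libraries went opposite ways. Replicate 1 had 25 of 32 above the wild-type mean and replicates 3 and 4 had 11 and 5. Without replicate 1 the median was −0.28, with 27 of 32 lower, and without replicate 4 it was 0.11, with 22 of 32 higher. Vnn1 (ENSMUSG00000037440), a pantetheinase that PPAR-alpha induces, was the list's member with the smallest p. It had 8.47, 6.34, 3.15 and 7.94 CPM in wild type, 5.65, 13.01 and 7.96 CPM in untreated mutants and 19.6, 13.8 and 32.3 CPM with metformin. Each metformin library lay above each of the other 7 (1.76 ± 0.40, edgeR adjusted p = 0.321), and without metformin replicate 3 the difference was 2.01. Cyp4a14, an omega-hydroxylase of fatty acids, and Acot3, a peroxisomal thioesterase, are further PPAR-alpha targets. Cyp4a14 had 7.97 to 57.6 CPM in wild type and 476, 15.3 and 12.02 CPM with metformin, so that replicate 1 stood alone (2.34 ± 1.16, edgeR adjusted p = 0.9999). Acot3 showed the same library apart, with 13.4 CPM in metformin replicate 1 against 0.264 and 0.869 CPM in the others and 0.392 to 1.61 CPM in wild type (2.51 ± 1.32, edgeR adjusted p = 0.9999). Without that library both differences turned, to −1.27 for Cyp4a14 and −0.54 for Acot3. Reads of these family members can be shared with near-identical neighbours, so their levels are uncertain.

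Urea cycle and amino acid breakdown genes lay lower in all 29 measured (47.2% of all genes), with a median of −0.55. Hepatocytes use these enzymes to strip nitrogen from amino acids and to turn ammonia into urea. The counts were 0 called, 3 at an unadjusted p under 0.05 (0.689% of all genes lay lower at that p) and 7 without overlap (1.86% of all genes). In metformin replicates 3 and 4 all 29 genes were under the wild-type mean, and in replicate 1 it was 23 of 29. Relative to wild type the list's mean log2 level was −0.34, −0.44 and −0.85 in metformin replicates 1, 3 and 4 and −0.36 to 0.29 in wild type, so replicate 1 lay inside the range. Untreated mutants spanned −0.73 to −0.14, and metformin mutants differed from them by a median of −0.14.

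Among transporters and enzymes of this group, Slc25a15 carries ornithine into mitochondria. It had 615, 478, 807 and 566 CPM in wild type and 470, 366 and 292 CPM with metformin, without overlap (−0.71 ± 0.33, edgeR adjusted p = 0.9999). Ass1, the argininosuccinate synthase of the urea cycle, had 3747, 3445, 6850 and 4175 CPM in wild type and 2857, 2718 and 2615 CPM with metformin, also without overlap (−0.74 ± 0.36, edgeR adjusted p = 0.9999). The 3 metformin libraries were nearly level in Ass1, and the untreated mutants, at 1573 to 3969 CPM, reached lower still. Bckdhb, a subunit of the complex that degrades branched-chain amino acids, had 222 to 284 CPM in wild type and 179, 164 and 196 CPM with metformin (−0.46 ± 0.22, edgeR adjusted p = 0.9999). Amt, of the glycine cleavage system, overlapped between groups by a single pair of libraries, with 109, 78.3, 96.0 and 116 CPM in wild type and 81.8, 65.4 and 51.1 CPM with metformin (−0.59 ± 0.27, edgeR adjusted p = 0.9999). Genes of methionine and folate (one-carbon) metabolism lay lower in 17 of 23 (median −0.36, and −0.21 without metformin replicate 4). The exception with the smallest p was Phgdh, which starts serine synthesis from glucose. It had 1.20, 1.07, 1.18 and 0.540 CPM in wild type and 2.16, 2.58 and 2.69 CPM with metformin, without overlap and with untreated mutants at 0.844 to 1.48 CPM (1.31 ± 0.57, edgeR adjusted p = 0.9999).

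Gluconeogenesis genes, the textbook target of metformin, lay lower in 17 of 23 with a median of −0.28, and 0 had an unadjusted p under 0.05. Without metformin replicate 3 the median was −0.50, and without replicate 4 it was −0.18. In the untreated mutants 21 of 23 lay below wild type (median −0.28), and metformin mutants differed from those by a median of 0.08. Tat, the tyrosine aminotransferase, had 606, 424, 1230 and 1155 CPM in wild type and 255, 700 and 180 CPM with metformin (−1.17 ± 0.59, edgeR adjusted p = 0.9999), with replicate 3 among the wild types. Igfbp1, an IGF binding protein that insulin represses, had 24.6, 12.5, 50.8 and 15.3 CPM in wild type and 9.53, 7.46 and 11.5 CPM with metformin, without overlap (−1.44 ± 0.84, edgeR adjusted p = 0.9999). Pck2, the mitochondrial PEP carboxykinase, went the other way, with 1.39 to 4.81 CPM in wild type and 2.21, 10.7 and 4.06 CPM with metformin (1.07 ± 0.55, edgeR adjusted p = 0.9999), and without metformin replicate 3 its difference was 0.22. AMPK subunits and regulators had a median of −0.07, with 9 of 15 lower, and medians of 0.05 without metformin replicate 1 and −0.29 without replicate 3.

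The machinery that handles metformin and other drugs differed little in the median. Of the cation transporter genes 5 of 5 measured lay lower (47.2% of all genes), with a median of −0.21. Their mean log2 level was −0.32 to −0.20 with metformin and −0.15 to 0.08 in wild type, without overlap. In untreated mutants it was −0.46 to −0.09. Slc47a1 (MATE1), which exports metformin from cells, had 69.1 to 91.6 CPM in wild type and 78.6, 65.6 and 47.3 CPM with metformin, with overlap (−0.33 ± 0.33, edgeR adjusted p = 0.9999). P450 and xenobiotic receptor target genes lay lower in 24 of 38 (median −0.22, and −0.07 without metformin replicate 4). Aldh1a1, a retinal dehydrogenase, had 1925, 2168, 1996 and 2808 CPM in wild type and 1448, 1573 and 1096 CPM with metformin, without overlap (−0.70 ± 0.28, edgeR adjusted p = 0.911). Cyp2a4, a steroid hydroxylase of female-biased expression, had 3.62 to 21.2 CPM in wild type and 49.3, 8.42 and 120 CPM with metformin (2.66 ± 0.90, edgeR adjusted p = 0.651, and 1.62 without replicate 4), and its reads cannot be fully told from those of Cyp2a5. The P450 gene Cyp17a1, a steroid hydroxylase whose expression in liver is female-biased, had 23.9, 29.7, 161 and 47.1 CPM in wild type and 18.8, 24.9 and 9.503 CPM with metformin (−1.89 ± 0.68, edgeR adjusted p = 0.749, and −0.92 without wild-type replicate 3). Wild-type replicate 3 was the highest for Cyp17a1, and metformin replicate 3 overlapped with wild-type replicate 1.

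Acute-phase genes, whose products hepatocytes release during inflammation, lay lower in 26 of 30 (median −0.44). Of these, 1 had an unadjusted p under 0.05 (0.689% of all genes) and 1 lay lower without overlap (1.86% of all genes). The list's mean log2 level relative to wild type was −1.06, −0.54 and −0.03 in metformin replicates 1, 3 and 4. Wild types spanned −0.67 to 1.18, with replicate 3 at the top, and without that library the median was −0.16 with 20 of 30 lower. On the authors' deposited residuals, from which they had removed factors, the median was 0.54. Untreated mutants spanned 0.07 to 2.20, so each of them lay above each metformin library, and 29 of 30 genes lay lower with metformin than in these mutants (median −1.35). Mt2, a metal-binding protein that inflammation and zinc induce, had 0.552, 0.392, 25.7 and 2.66 CPM in wild type, 34.6, 18.5 and 9.39 CPM in untreated mutants and 0.895, 0.594 and 0.464 CPM with metformin. Metformin mutants and untreated mutants did not overlap in Mt2, but edgeR called neither that difference (−5.02 ± 1.68, adjusted p = 0.607) nor the one from wild type (−3.52 ± 1.56, adjusted p = 0.9999, and −0.91 without wild-type replicate 3). Coagulation and complement genes lay lower than wild type in 28 of 31 (median −0.22). Their mean log2 level was −0.31 to −0.14 with metformin and −0.09 to 0.06 in wild type, without overlap, but on the deposited residuals the median was 0.081. Hepatocyte markers had a median of −0.27 with 10 of 11 lower, but metformin replicates 1, 3 and 4 had 4, 7 and 11 of the 11 under the wild-type mean. Without replicate 4 their median was −0.035, with 6 of 11 lower.

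Erythroid genes, of red blood cells and their precursors, lay lower in metformin mutants. They were lower in 9 of 9 measured (47.2% of all genes), with a median of −0.75. The median was −1.18 without metformin replicate 3 and −0.57 without metformin replicate 4, there with 8 of 9 lower. None was called, 0 had an unadjusted p under 0.05 and 3 lay lower without overlap (1.86% of all genes). The list's mean log2 level of −1.20 to −0.40 with metformin lay below the −0.32 to 0.46 of the wild types. The summed level was 593 to 1028 CPM with metformin, 1096 to 2011 CPM in wild type and 463 to 3834 CPM in untreated mutants. Hba-a1, an alpha globin gene nearly identical to Hba-a2, had 270, 282, 331 and 509 CPM in wild type and 143, 229 and 102 CPM with metformin (−1.14 ± 0.68, edgeR adjusted p = 0.9999). Hbb-bt, a beta globin gene, had 43.4, 33.5, 55.6 and 101 CPM in wild type and 28.6, 25.2 and 17.4 CPM with metformin (−1.30 ± 0.75, edgeR adjusted p = 0.9999). In both globins the groups did not overlap, while the untreated mutants ranged on either side, with 95.5, 712 and 265 CPM of Hba-a1. How much blood each liver sample held was not measured.

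Neutrophil genes lay lower in 15 of 15, 7 of them at an unadjusted p under 0.05 (0.689% of all genes), with a median of −3.00. That size rested on wild-type replicate 3. Camp, an antimicrobial peptide of neutrophil granules, had 0.368, 0.285, 58.2 and 3.35 CPM in wild type and 0.0526, 0 and 0.0290 CPM with metformin, without overlap (−9.07 ± 2.597, edgeR adjusted p = 0.427, and −5.53 without wild-type replicate 3). Mpo, the myeloperoxidase of the same granules, had 0.0921, 0.107, 17.1 and 1.503 CPM in wild type and 0, 0 and 0.0290 CPM with metformin (−8.16 ± 2.45, edgeR adjusted p = 0.471). With 2 counts of Camp and 1 of Mpo in all metformin libraries, the pooled ratios to wild type were 0.00143 (95% exact interval 0.000173 to 0.00518) and 0.00238 (6.01e-05 to 0.0133), which cover counting error only. Elane and Ngp, which encode further granule proteins, showed the same library apart, with 18.5 and 44.8 CPM in wild-type replicate 3 and at most 2.31 and 3.89 CPM in the other wild types. Metformin libraries had 0.0526 to 0.174 CPM of Elane and 0.0526 to 0.145 CPM of Ngp, and overlapped with wild type in both. Without wild-type replicate 3 the list's median was −0.67, with 11 of the 14 genes still tested lower. With all wild types, the untreated mutants also lay lower than wild type, in 12 of 15 (52.2% of all genes) with a median of −1.41. Metformin mutants lay below the untreated mutants in 12 of 15 (46.1% of all genes), with a median of −1.80. The list's summed level was 50.7 to 1455 CPM in wild type and 20.4 to 1121 CPM with metformin, and 3, 2 and 0 of its genes were at 0 in metformin replicates 1, 3 and 4. Kupffer cell and macrophage genes lay lower in 13 of 18 (median −0.46, with −0.16 without metformin replicate 1, −1.30 without metformin replicate 4 and −0.27 without wild-type replicate 3), and 18 of 18 were under the wild-type mean in metformin replicate 1 but 5 of 18 in replicate 4.

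Among the macrophage genes, Marco, a scavenger receptor, had 4.97, 6.98, 46.9 and 3.28 CPM in wild type and 0.368, 0.627 and 5.85 CPM with metformin (−2.74 ± 1.23, edgeR adjusted p = 0.9999, and −1.13 without wild-type replicate 3). Timd4, a marker of resident Kupffer cells, had 4.34 to 14.3 CPM in wild type and 2.32, 2.61 and 4.46 CPM with metformin (−1.22 ± 0.54, edgeR adjusted p = 0.9999). In both genes metformin replicate 4 reached the wild-type range. Genes of dendritic cells and MHC class II lay higher in 11 of 11 (median 0.41), but 10 of these were below the wild-type mean in metformin replicate 1 and 0 in replicate 4. Without replicate 4 the median was −0.75, with 8 of 11 lower. The member with the smallest p was Xcr1, the chemokine receptor of cross-presenting dendritic cells. It had 0.308 to 0.466 CPM in wild type and 0.737, 0.627 and 0.840 CPM with metformin, without overlap (1.005 ± 0.36, edgeR adjusted p = 0.740), and untreated mutants, at 0.513 to 0.766 CPM, lay above the wild types and overlapped with the metformin libraries. T and NK cell genes lay higher in 12 of 15 (median 0.36) and B and plasma cell genes in 11 of 14 (median 0.47). Of the T and NK cell genes 0, 5 and 14 of 15 were above the wild-type mean in metformin replicates 1, 3 and 4. The antibody genes Igha and Jchain, of plasma cells, were highest in metformin replicates 3 and 4, with 186 and 69.4 CPM of Igha against 9.21 CPM in replicate 1 and 10.4 to 30.0 CPM in wild type (2.12 ± 0.65, edgeR adjusted p = 0.493, and 0.96 without replicate 3). Jchain had 134.4 and 106 CPM in these libraries, 32.3 CPM in replicate 1 and 23.7 to 41.0 CPM in wild type (1.59 ± 0.52, edgeR adjusted p = 0.581, and 1.19 without replicate 3).

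Cell division genes lay higher in 42 of 43 (52.8% of all genes), with a median of 0.80. Of these, 1 had an unadjusted p under 0.05 (3.79% of all genes lay higher at that p). The libraries ranged widely. Metformin replicates 1, 3 and 4 had mean log2 levels of the list of 0.03, 0.53 and 1.65 over wild type, against −0.63 to 0.69 in wild type. Replicate 4 alone lay above the wild types, and without it the median was 0.11 with 28 of 43 higher. The member with the smallest p was Ccne1, the cyclin that starts DNA replication. It had 0.783, 1.42, 1.32 and 0.578 CPM in wild type and 2.05, 1.52 and 5.79 CPM with metformin, without overlap (1.60 ± 0.50, edgeR adjusted p = 0.497, and 0.79 without replicate 4). Untreated mutants, at 1.37 to 2.42 CPM, overlapped with both. The mitotic kinase gene Plk1 (1.66 ± 0.84, edgeR adjusted p = 0.9999, and 0.98 without replicate 3) was highest in metformin replicate 3, with 1.78 CPM, and the spindle gene Hmmr (1.84 ± 1.08, edgeR adjusted p = 0.9999, and 0.62 without replicate 4) in replicate 4, with 2.52 CPM. In wild type they reached 0.645 and 0.609 CPM. As a list, cell division genes lay higher than in untreated mutants in 42 of 43 (8684 of all 16115 genes), with a median of 1.28. The untreated mutants themselves lay lower than wild type in 35 of 43 (52.2% of all genes), with a median of −0.40.

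Fetal and tumour marker genes of the liver lay higher in 18 of 20 (median 1.18), 8 of them at an unadjusted p under 0.05 (3.79% of all genes lay higher at that p) and 0 without overlap. Without metformin replicate 3 the median was 0.69, without replicate 4 it was 0.65, and without wild-type replicate 2 it was 2.08. Metformin mutants lay above untreated mutants in 18 of 20 (median 1.69), and the untreated mutants lay above wild type in 11 of 20 (median 0.07). H19, an imprinted RNA of fetal liver, had 0.0460, 7.41, 0.107 and 0.116 CPM in wild type and 0.895, 10.2 and 283 CPM with metformin. Metformin replicate 4 stood apart for H19, and wild-type replicate 2 lay between metformin replicates 1 and 3 (5.66 ± 1.61, edgeR adjusted p = 0.417, and 1.52 without replicate 4). Ly6d, a surface protein of epithelial and lymphoid progenitors, had 1.10 to 5.73 CPM in wild type and 2.16, 288 and 51.4 CPM with metformin (5.24 ± 1.52, edgeR adjusted p = 0.460, and 3.15 without replicate 3). Bile duct genes lay higher in 14 of 17 (median 1.67), 7 at an unadjusted p under 0.05 (3.79% of all genes). Their mean log2 level was 3.32 and 1.59 in metformin replicates 3 and 4, −0.78 in replicate 1 and −0.62 to 1.48 in wild type. The summed level was 72.8 to 836 CPM with metformin, 96.0 to 314 CPM in wild type and 92.9 to 1515 CPM in untreated mutants. Bile duct genes lay higher than in untreated mutants in 14 of 17 (median 2.08), and these mutants lay below wild type in 11 of 17 (median −0.21).

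Krt19, the keratin of bile duct cells, had 0.430 to 2.92 CPM in wild type and 0.684, 237 and 1.51 CPM with metformin (6.05 ± 1.54, edgeR adjusted p = 0.372). Muc1, a mucin of ductal surfaces, had 0.138 to 1.18 CPM in wild type and 0.684, 155 and 1.85 CPM with metformin (6.80 ± 1.495, edgeR adjusted p = 0.321). Tff2, a secreted mucosal peptide, had 0 to 0.712 CPM in wild type and 0.368, 6.24 and 11.53 CPM with metformin (4.93 ± 1.37, edgeR adjusted p = 0.416). Replicate 3 carried Krt19 and Muc1 nearly alone, and Tff2 was shared with replicate 4. Without replicate 3, Krt19 turned to −0.11, Muc1 was 1.47 and the list's median 0.18, with 11 of 17 higher. Without wild-type replicate 2, the highest of its group, the median was 3.04.

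The same library carried contractile genes. Smooth muscle genes lay higher in 7 of 7 measured (median 3.23), with a mean log2 level of 4.52 in metformin replicate 3 against −0.34 and −0.22 in replicates 1 and 4 and −0.28 to 0.20 in wild type. Myh11, the smooth muscle myosin, had 0.308 to 0.788 CPM in wild type and 0.210, 53.3 and 0.464 CPM with metformin (5.08 ± 1.27, edgeR adjusted p = 0.372), and Acta2, smooth muscle actin, 1.08 to 1.68 CPM and 1.58, 119 and 1.71 CPM (4.87 ± 1.32, edgeR adjusted p = 0.411). Without that library Myh11 was −0.59, Acta2 0.25 and the list's median −0.53 with 5 of 7 lower. With it, 7 of 7 lay higher than in untreated mutants (median 3.28), and these mutants lay below wild type in 6 of 7 (median −0.13). Of 8 listed skeletal muscle genes 2 were measured, and both lay above the wild-type mean in metformin replicate 3. Their mean log2 level ranged from −0.38 to 5.88 with metformin and from −0.97 to 0.87 in wild type. Of 9 listed gut epithelium genes 5 were measured, and Lgals4, a galectin of gut epithelium, had 0.848 to 1.84 CPM in wild type and 2.68, 166 and 1.82 CPM with metformin (5.62 ± 1.12, edgeR adjusted p = 0.321, and 0.96 without replicate 3). The other 4, among them the defining gut factors Cdx1 and Cdx2, were not analysed here. This list was also high in metformin replicate 4 and in untreated mutant replicate 2 (mean log2 levels of 3.69, 2.22 and 2.68 for the 3 libraries), and its median of 4.07 was 1.43 without metformin replicate 3. Stellate cell and fibroblast genes lay higher in 23 of 30 (median 1.10), with mean levels of 1.66 and 1.08 in metformin replicates 3 and 4 and −0.61 in replicate 1. Without replicate 3 the median was 0.48 and without replicate 4 it was 0.69. With all 3, 27 of 30 lay higher than in untreated mutants (median 1.20), and these mutants lay below wild type in 27 of 30 (median −0.33). Col1a2, a chain of type I collagen, had 1.62 to 8.40 CPM in wild type and 1.68, 51.5 and 15.6 CPM with metformin (2.50 ± 0.99, edgeR adjusted p = 0.893, and 1.10 without replicate 3). Thy1, a marker of portal fibroblasts, had 1.83 to 3.92 CPM and 2.26, 11.6 and 5.85 CPM (1.24 ± 0.40, edgeR adjusted p = 0.573, and 0.55 without replicate 3).

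**Figure D3:**
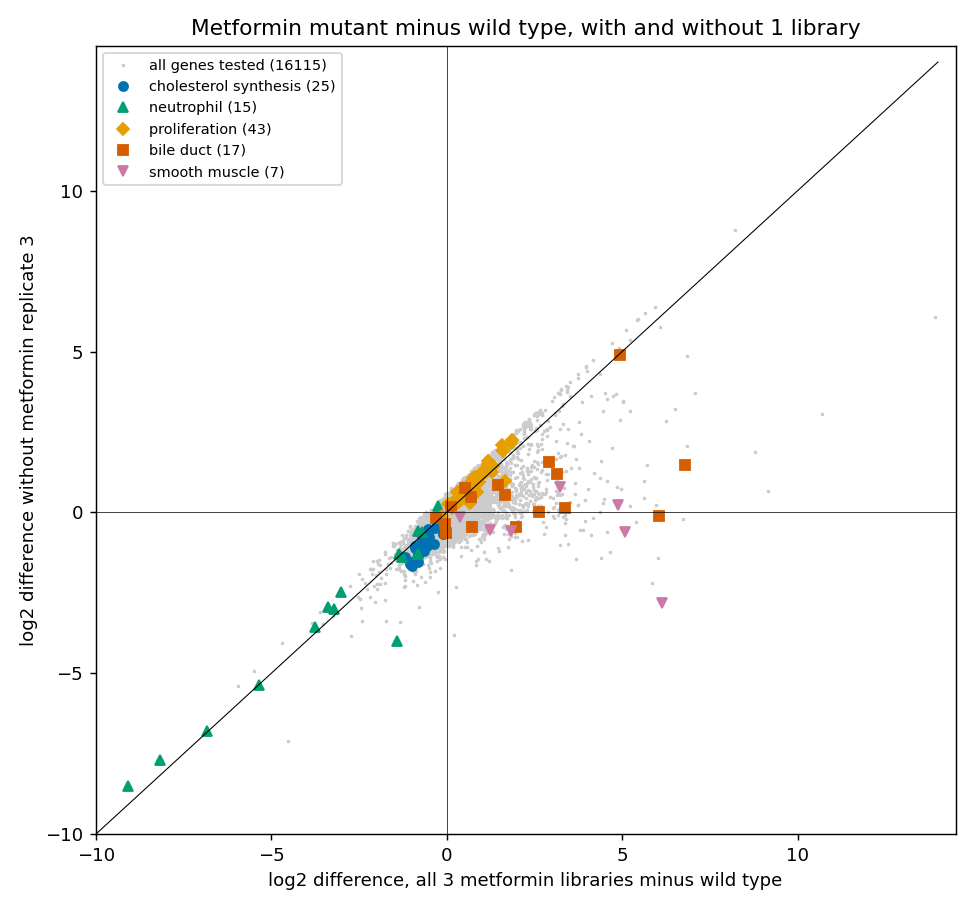
Log2 difference of metformin mutant minus wild type for each of the 16115 genes with all 3 metformin libraries (horizontal axis) and without metformin replicate 3 (vertical axis), with the line of equal values and 5 gene lists in colour. Without that library 5 of 7 smooth muscle genes lie below 0 and 11 of 17 bile duct genes above it, and all 25 cholesterol synthesis genes and 14 of 15 neutrophil genes stay below 0.

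Genes of the respiratory chain and of ribosomes differed among the metformin libraries. Complex I, where electrons from NADH enter the chain, is the site that metformin inhibits. Complex I genes lay lower than wild type in 22 of 37 (median −0.03), and 35 of 37 lay lower than in untreated mutants (median −0.34). In metformin replicate 1, 35 of 37 lay above the wild-type mean, in replicate 3 it was 1 and in replicate 4 it was 6. The direction turned with the libraries used: the median was −0.43 with 37 of 37 lower without replicate 1, 0.19 with 29 of 37 higher without replicate 3 and 0.05 with 27 of 37 higher without replicate 4. Ribosomal protein genes showed the same order of libraries, with 44, 2 and 29 of 45 above the wild-type mean in metformin replicates 1, 3 and 4. They lay higher than wild type in 37 of 45 (median 0.17) and lower than in untreated mutants in 45 of 45 (median −0.34). Without metformin replicate 1 the median against wild type was −0.15. The 12 measured genes of the mitochondrial genome had a median of 0.0042, with 6 higher and 6 lower. Here too the libraries went apart, with 12, 5 and 1 of 12 above the wild-type mean in metformin replicates 1, 3 and 4. Without replicate 1 the median was −0.20 with 12 of 12 lower, and without replicate 4 it was 0.18 with 11 of 12 higher.

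DNA repair genes showed no common direction. The Fanconi anaemia proteins act with Fancd2 at crosslinks, and p53 responds to the damage. Of 27 measured Fanconi anaemia pathway genes 11 lay higher and 16 lower (median −0.05, and 0.08 without metformin replicate 1), and of 32 DNA damage and p53 target genes 17 lay higher and 15 lower (median 0.09, and −0.15 without metformin replicate 4). Mad2l2, a translesion synthesis and shieldin subunit, was the Fanconi gene with the smallest p, with 15.7 to 28.9 CPM in wild type, 19.8 to 41.2 CPM in untreated mutants and 11.4, 18.1 and 13.2 CPM with metformin. Its 3 metformin libraries lay below all untreated mutants and overlapped with wild type (−0.66 ± 0.33, edgeR adjusted p = 0.9999, against wild type). Bbc3, which encodes the p53-induced death protein PUMA, had 12.1, 17.6, 14.4 and 15.8 CPM in wild type, 13.6 to 19.1 CPM in untreated mutants and 6.999, 11.7 and 11.1 CPM with metformin. Each metformin library lay below each of the other 7 for Bbc3 (−0.58 ± 0.24, edgeR adjusted p = 0.918).

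The next genes were taken across all genes, as the 8 with the smallest p in each direction. They came from genes without overlap between the groups and with a mean log2 CPM of at least 0. EdgeR on all libraries called none of the 16. DESeq2 called Tmem45b, Vnn1, Pou2af1, Synm, Rnd1 and Tmtc1 (DESeq2 adjusted p = 0.00102 to 0.0446). EdgeR called Dmbt1, Ckmt1, Tmem45b and Tmtc1 without metformin replicate 1, and Dmbt1 and Ckmt1 without replicate 4. Limma on the deposited residuals called Vnn1, Rnd1, Gstm7 and Tmem45b. The first of the higher ones, Dmbt1 (ENSMUSG00000047517), encodes a scavenger receptor of mucosal surfaces and bile ducts. It had 0.0921, 0.214, 0 and 0 CPM in wild type and 6.74, 3764 and 4.35 CPM with metformin (13.91 ± 2.69, edgeR adjusted p = 0.321). The untreated mutants had 5.33, 8.70 and 6.31 CPM, so metformin replicate 1 lay in their range, replicate 4 just under it and replicate 3 far above. Dmbt1 was not high in every mutant, since the 8 libraries given oxymetholone, with or without metformin, had a median of 0.0406 CPM and a range of 0 to 7.85 CPM. Without metformin replicate 3 the difference of Dmbt1 from wild type was 6.08 (edgeR adjusted p = 0.926).

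Replicate 3 was also far the highest in Tmem45b, a transmembrane protein gene (2.10, 23.1 and 4.90 CPM with metformin, 0.732 to 1.42 CPM in wild type, 3.23 ± 0.63, edgeR adjusted p = 0.321, and 1.71 without replicate 3). Ckmt1, a mitochondrial creatine kinase gene, had 2.53, 68.7 and 1.56 CPM with metformin and 0.537 to 1.21 CPM in wild type (4.57 ± 0.94, edgeR adjusted p = 0.321, and 0.99 without replicate 3). Tmtc1, of protein mannosylation, had 1.05, 8.98 and 1.53 CPM with metformin and 0.732 to 0.967 CPM in wild type (2.13 ± 0.54, edgeR adjusted p = 0.372, and 0.56 without replicate 3). Pou2af1, a transcription coactivator of B cells, had 1.63, 10.4 and 2.12 CPM with metformin and 0.138 to 1.53 CPM in wild type (3.04 ± 0.77, edgeR adjusted p = 0.372, and 1.71 without replicate 3). It was high mainly in replicate 3, unlike Igha and Jchain, which were high in replicate 4 as well. Synm, an intermediate filament protein of stellate and muscle cells, had 1.84, 7.07 and 4.43 CPM with metformin and 0.691 to 1.21 CPM in wild type (2.12 ± 0.53, edgeR adjusted p = 0.372, and 1.62 without replicate 3). Nbea, a scaffold protein gene, was more even over the metformin libraries, with 1.90, 2.44 and 1.51 CPM against 1.06, 1.03, 0.860 and 0.848 CPM in wild type (1.03 ± 0.28, edgeR adjusted p = 0.403). Untreated mutants, at 1.32 to 1.59 CPM of Nbea, lay above all wild types as well. Vnn1, given above, completes the 8.

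In the lower genes no metformin library stood as far from the others as replicate 3 did for Dmbt1 and Ckmt1. Rnd1 (ENSMUSG00000054855), a small GTPase, had 12.02, 11.6, 15.2 and 14.99 CPM in wild type, 14.6, 12.8 and 9.21 CPM in untreated mutants and 6.42, 7.43 and 8.17 CPM with metformin. Its metformin libraries lay below all 7 others (−0.87 ± 0.22, edgeR adjusted p = 0.372), and without replicate 3 the difference was −0.88. Gstm7, a glutathione transferase of a family with near-identical members, had 93.8 to 131 CPM in wild type and 66.2, 70.3 and 57.7 CPM with metformin (−0.76 ± 0.23, edgeR adjusted p = 0.492). Kynu, the kynureninase of tryptophan breakdown, had 241 to 354 CPM in wild type and 176, 199 and 143 CPM with metformin (−0.75 ± 0.26, edgeR adjusted p = 0.674). For Gstm7 and Kynu the untreated mutants lay between or across the groups, at 72.03 to 98.7 CPM and 190 to 269 CPM.

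As3mt methylates arsenic. It had 91.7, 82.2, 176 and 113 CPM in wild type, 98.8 to 136 CPM in untreated mutants and 76.2, 70.4 and 44.4 CPM with metformin (−0.86 ± 0.30, edgeR adjusted p = 0.686). Acnat2, a peroxisomal acyltransferase with a close paralog, had 137, 113, 242 and 188 CPM in wild type, 133.6 to 178 CPM in untreated mutants and 87.7, 70.1 and 37.0 CPM with metformin (−1.39 ± 0.50, edgeR adjusted p = 0.749). In As3mt and Acnat2 every metformin library lay below every untreated mutant too. Cdo1, the cysteine dioxygenase that leads to taurine, had 1727, 1539, 2738 and 2249 CPM in wild type, 1191 to 1932 CPM in untreated mutants and 1377, 945 and 997 CPM with metformin (−0.90 ± 0.33, edgeR adjusted p = 0.749). Cd163, the hemoglobin scavenger receptor of macrophages, had 3.77, 1.67, 13.4 and 3.39 CPM in wild type and 1.26, 1.65 and 1.04 CPM with metformin (−2.08 ± 0.68, edgeR adjusted p = 0.582, and −1.15 without wild-type replicate 3). For Cd163 wild-type replicate 2 and metformin replicate 3 were nearly equal. Acat2, the 8th, is given above with cholesterol synthesis.

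**Figure D4:**
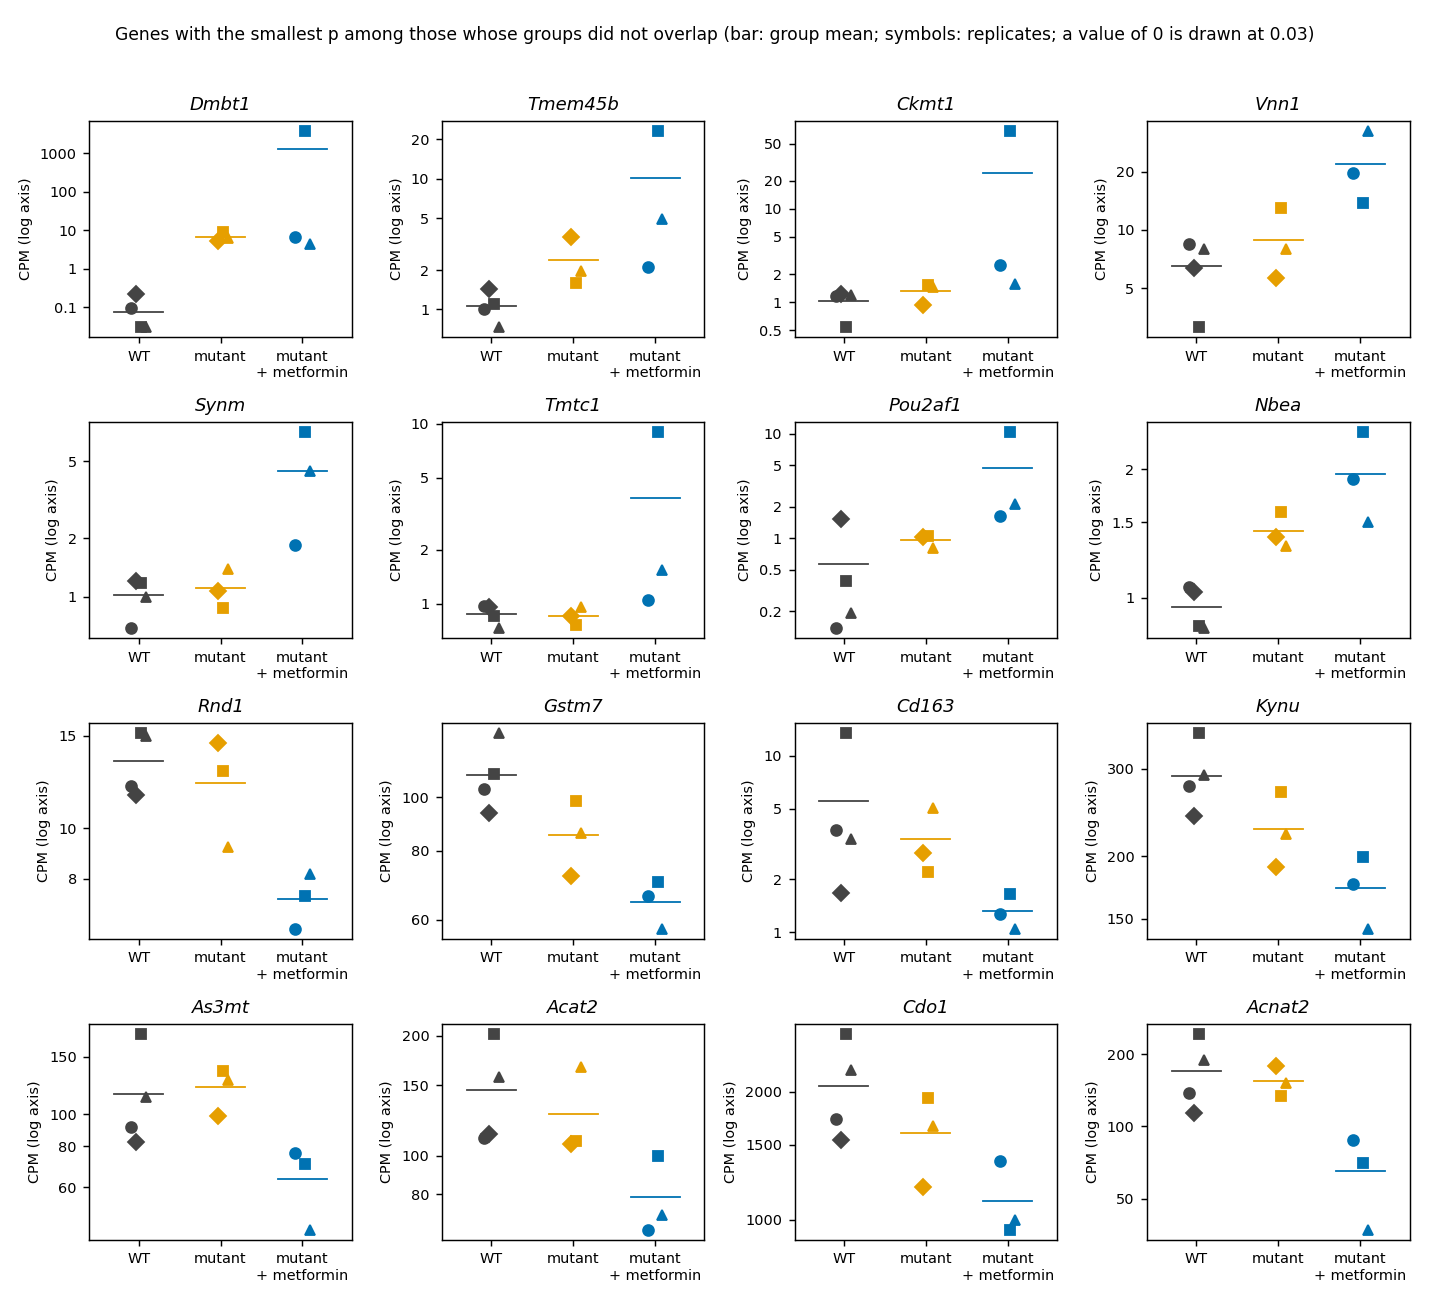
Levels (vertical axes, CPM on log axes) of the 16 genes with the smallest p among those whose metformin and wild-type libraries did not overlap, 8 higher in the upper 2 rows and 8 lower in the lower 2, for wild type (n = 4), untreated mutant (n = 3) and mutant with metformin (n = 3), with group means as bars. Metformin replicate 3 (blue square) sets the height of Dmbt1, Ckmt1, Tmem45b, Tmtc1 and Pou2af1, whereas the 3 metformin libraries lie close together in Rnd1, Gstm7 and Kynu.

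The 24 lists with at least 5 measured genes for which no alternative was run had medians from −0.33 (periportal genes) to 0.47 (B and plasma cell genes). Clock, NRF2, interferon and bile acid genes are among them. So are the cation transporter, lipid droplet, T and NK cell and B and plasma cell genes described above. A small median can hide libraries that went apart. Of the interferon genes 36 of 39 were below the wild-type mean in metformin replicate 1, and 36 of 39 above it in replicate 4. Their mean log2 level ranged from −0.90 to 1.04 with metformin and from −0.28 to 0.25 in wild type. In the 24 lists 0 genes were called.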

How the data were processed

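Liver RNA was purified on Qiagen columns before sequencing, per the labels' protocols. The authors deposited a table of raw counts per gene, read as whole numbers, on mouse build GRCm39 per the submitters' processing notes. How reads were aligned and counted, with which annotation and strand setting, is not given in the sources used here, so reads of overlapping, antisense and near-identical genes cannot be told apart. The same table holds normalised signal columns (CPM scaled by TMM), which the authors deposited beside the counts. These gave only the Dmbt1 levels of the libraries given oxymetholone. The other printed CPM were computed from the raw counts with edgeR's TMM scaling. Its log2 residuals, deposited by the authors after removal of factors that the sources used here do not name, served for an alternative. The authors' deposited p-values and log2 fold changes cover other comparisons and were not used.

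Samples were grouped by the genotype and treatment labels. EdgeR 4.0.16 (R 4.3.3) fitted the 18 libraries in 5 groups, without covariates, on 16115 genes (TMM scaling; the filterByExpr filter removed 0 genes), with the robust quasi-likelihood test and Benjamini-Hochberg adjustment at 0.05. The fit's common dispersion of 0.181 equals a coefficient of variation between libraries of 0.426. SE is the log2 difference divided by the square root of the F statistic. The 18 libraries held 20.2 to 32.7 M counts, and library pairs within the wild-type and metformin groups differed by far more than sampling noise (the lowest chi-square per degree of freedom was 90.8). List levels are means of log2 CPM (prior count 2) minus the wild-type mean.

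The members and the gene lists were chosen with earlier results of these data known. Named genes were, in each direction, called genes without overlap between the groups, filled up to 8 by smallest p among genes with a mean log2 CPM of at least 0, and up to 4 per list by smallest p. A transporter gene is not reported here. Alternatives were DESeq2 1.42.0, limma 3.58.1 (voom with quality weights), other scalings, filters and sample sets, and each library left out. The scripts were tested on simulated data.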

Additional observations from a re-analysis of the deposited data

Results flagged for a closer look

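Wild-type replicates were checked for a single library far from the other 3, over 66 genes and 26 gene lists. Chance alone marks about 1 in 20, and the 4 flagged below are no more than that share. Ckmt1 was at 0.537 CPM in wild-type replicate 3 against 1.15 to 1.21 CPM in the others. Phgdh was at 0.540 CPM in wild-type replicate 4 against 1.07 to 1.20 CPM in the others. H19 was at 7.41 CPM in wild-type replicate 2 against 0.0460 to 0.116 CPM in the others. The bile duct list had a mean log2 level of 1.48 in wild-type replicate 2 against −0.62 to −0.41 in the others.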

How the results depend on the processing

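No paired analysis was possible because the labels carry no replicate numbers that pair libraries across groups. DESeq2 called 49 genes against wild type and 11 against untreated mutants. Besides the genes given above as called, the 49 included Camp, Elane, Ngp, Ly6d, Tff2 and Plin4. EdgeR with DESeq2's size factors, without a filter, with a mean CPM of at least 1 or with only the compared groups called 0 (460 to 751 at an unadjusted p under 0.05), and limma-voom called 0 (1673). Leaving out 1 library gave 0 to 67 calls, with 67 without metformin replicate 1 and 7 without metformin replicate 4. Krt19, Muc1, Myh11, Igha, Lgals4 and Thy1 were among those without replicate 1, and Lgals4 was also called without replicate 4. Limma on the deposited residuals called 22, with Bbc3 among them.

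Leaving out 1 library gave list medians of −4.39 to −0.67 for neutrophil, −0.15 to 0.41 for ribosomal protein, −1.18 to −0.57 for erythroid, −0.53 to 3.75 for smooth muscle, 1.43 to 4.64 for gut epithelium, −1.30 to −0.16 for Kupffer and macrophage, −0.75 to 1.04 for dendritic and MHC class II and −0.48 to −0.21 for one-carbon genes. Cholesterol synthesis ranged from −1.03 to −0.53 and urea cycle genes from −0.65 to −0.44. Single genes ranged from −1.27 to 2.89 (Cyp4a14), −0.54 to 3.08 (Acot3), −0.11 to 7.01 (Krt19) and −0.59 to 5.66 (Myh11). Voom gave −1.18 for erythroid, 0.0851 for smooth muscle, 1.91 for gut epithelium and −0.52 for one-carbon genes.

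The next settings were chosen after seeing the data. Without metformin and wild-type replicate 3 the values were −0.88 for neutrophil, 0.11 for bile duct, −0.33 for smooth muscle, 2.05 for gut epithelium, −0.39 for Krt19 and −0.33 for Myh11. Without metformin and combination replicate 3 they were −1.12 for erythroid, −0.30 for smooth muscle, 1.48 for gut epithelium, −0.0638 for Krt19 and −0.55 for Myh11. On the deposited residuals the medians were −0.25 for urea cycle, 0.34 for mitochondrial genome, 0.54 for acute phase, −0.64 for neutrophil, −0.0874 for bile duct, −0.0857 for stellate, −0.39 for smooth muscle, 0.93 for gut epithelium, 0.081 for coagulation, −0.18 for dendritic and MHC class II and −0.12 for one-carbon genes. There Mt2 was 0.77, Krt19 −0.24, Myh11 −0.59 and Acta2 −0.39. For these changes the cause was not tested. Genes with under 1 CPM rest on few reads, and groups of 3 and 4 libraries limit the precision of every difference.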
